A study of Mus musculus with 192 samples.

Results

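The effect of losing Nrf2 on the liver transcriptome of mice that stayed on the ground was measured in 12 of the 192 libraries of the series. All liver libraries with the ground-control condition were taken, 6 from WT mice (GC_WT) and 6 from Nrf2-KO mice (GC_KO), and their estimated gene counts were compared. The mice were males, C57BL/6 and 12 weeks old per the labels and C57BL/6J in both genotypes per the study's methods, and each library was made from the liver of 1 mouse. The Nrf2-KO mice carry a germline deletion in every cell of the body, so the contrast holds the loss of Nrf2 during development and in other organs as well as in the liver. Before launch, the study gave Nrf2-KO mice ketamine and xylazine and removed those whose sleep time pointed to an intrahepatic shunt. Such a test is not described for WT mice. Of the ground mice the methods say that they had no hepatic shunt, without naming the test. An effect of that drug exposure on the contrast was not tested. All 12 mice were housed singly for about a month in cages like those of the flight, but stayed on the ground. In the study's methods, 12 weeks is an age reached before transport to the space station. Whether the 12 weeks of the labels hold for the start of this housing or for dissection is not stated. Of the other groups, 6 flown WT mice (FL_WT) and 5 flown Nrf2-KO mice (FL_KO) entered the same fit, where they add to the estimate of spread and give a second genotype contrast in other animals. Flown Nrf2-KO mouse 4, which had an intestinal hemorrhage, was left out.

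Nrf2, encoded by Nfe2l2, is a transcription factor of the CNC family that is held in the cytoplasm and marked for degradation by Keap1. When electrophiles or oxidants modify Keap1, Nrf2 accumulates, pairs with a small Maf protein and binds antioxidant response elements near genes of glutathione metabolism, quinone reduction, conjugation and export of foreign compounds. The liver is rich in these enzymes, and part of their expression depends on Nrf2 even in unchallenged animals.

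The core of the antioxidant response element, TGACNNNGC, was looked for on both strands in the window from 250 bases before to 50 bases after each annotated RefSeq start (GRCm38.p6). It was present in 34 of 165 genes that were lower in GC_KO and had a promoter sequence (20.6%). The counts were 15 of 82 for genes that were higher (18.3%) and 1666 of 9924 for all genes tested (16.8%). A gene may have several sequences. Counted by sequence, it was in 36 of 226 of the lower genes, 17 of 108 of the higher genes and 1805 of 12715 of the genes tested. Over the whole reference it was in 4071 of 32851 promoter sequences (12.4%), a share to set beside the counts by sequence alone. Of the Nrf2 target genes that the study displays, 7 of 20 with a sequence held it (35%). No test was made of these shares, a match of these letters is not a shown binding site, and a window without the letters says nothing about more distant elements. The windows of Ugdh, Me1, Gsta3 and 9130409I23Rik, whose RNA was lower in GC_KO, are shown with that of Gclm. The RNA of Gclm did not pass the test, and the letters occurred in both kinds of gene. They also occurred in windows of genes that were higher in GC_KO, among them Aacs, Dhcr7, Hsd17b7 and Pmvk, which are not shown. The capitals mark the motif in either orientation, and each sequence is written 5′ to 3′ on the strand of its gene.
Ugdh, chr5:65435793-65436092, minus strand: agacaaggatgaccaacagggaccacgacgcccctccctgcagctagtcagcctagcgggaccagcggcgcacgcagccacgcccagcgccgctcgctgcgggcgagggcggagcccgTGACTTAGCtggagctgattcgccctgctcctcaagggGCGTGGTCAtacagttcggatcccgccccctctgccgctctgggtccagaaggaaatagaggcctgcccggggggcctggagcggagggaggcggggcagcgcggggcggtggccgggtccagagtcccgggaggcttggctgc
Me1, chr9:86695865-86696164, minus strand: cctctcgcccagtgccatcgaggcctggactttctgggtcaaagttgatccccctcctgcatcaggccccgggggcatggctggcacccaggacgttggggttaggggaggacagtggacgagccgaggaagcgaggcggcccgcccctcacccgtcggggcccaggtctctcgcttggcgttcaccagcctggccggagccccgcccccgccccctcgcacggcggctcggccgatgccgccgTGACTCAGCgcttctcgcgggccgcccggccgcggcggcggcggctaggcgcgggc
Gsta3, chr1:21240335-21240634, plus strand: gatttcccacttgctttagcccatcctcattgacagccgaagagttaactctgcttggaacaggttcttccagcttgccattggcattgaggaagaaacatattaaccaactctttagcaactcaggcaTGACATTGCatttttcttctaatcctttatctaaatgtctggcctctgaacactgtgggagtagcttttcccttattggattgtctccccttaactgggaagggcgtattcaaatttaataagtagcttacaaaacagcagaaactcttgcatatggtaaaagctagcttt
9130409I23Rik, chr1:181050987-181051286, plus strand: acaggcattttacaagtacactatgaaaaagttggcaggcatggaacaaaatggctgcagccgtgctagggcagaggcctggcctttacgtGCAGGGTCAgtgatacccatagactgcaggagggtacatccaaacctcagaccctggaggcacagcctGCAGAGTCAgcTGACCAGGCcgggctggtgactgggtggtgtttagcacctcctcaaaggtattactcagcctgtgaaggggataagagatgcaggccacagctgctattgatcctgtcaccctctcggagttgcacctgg
Gclm, chr3:122245307-122245606, plus strand: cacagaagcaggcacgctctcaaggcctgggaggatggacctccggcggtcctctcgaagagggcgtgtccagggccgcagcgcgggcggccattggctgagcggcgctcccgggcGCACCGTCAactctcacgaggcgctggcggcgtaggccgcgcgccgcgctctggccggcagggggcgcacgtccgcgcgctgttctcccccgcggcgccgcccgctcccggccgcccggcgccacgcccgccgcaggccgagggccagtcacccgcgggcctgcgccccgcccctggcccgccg

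In Ugdh the motif began 132 bases before the start on the strand of the gene and 94 bases before it in the reverse orientation. Me1 held it 6 bases before the start and Gsta3 121 bases before it. The 9130409I23Rik window held 3 matches, at 159 and 91 bases before the start in reverse orientation and at 80 bases in the forward one. The Gclm match, in reverse orientation, lay 134 bases before the start. The window of Nqo1, a widely used Nrf2 target, held none.

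Depth was even over the 12 libraries, at 14.4 to 15.1 M estimated counts each. Mice are numbered 1 to 12 in the labels, with GC_KO mice 1, 2 and 4 and GC_WT mice 3, 5 and 6 in the lower numbers and GC_KO mice 9, 11 and 12 and GC_WT mice 7, 8 and 10 in the higher numbers. The first principal component of the liver libraries held 23.1% of the variance and followed the mouse number, and on the second, with 14.3%, the GC_KO and GC_WT livers did not overlap. Between mice 7 to 12 and mice 1 to 6, 3286 of 13433 genes differed (24.5%) with genotype in the fit. This split was made after the data had been seen. The sources used here do not say what the number stands for, and each number range holds 3 mice of each genotype. GC_WT mouse 8 and GC_KO mouse 11 stood apart for several genes named here, and values that moved by over 1.5 times without either of them are given both ways. The hepatocyte marker list summed to 74180 to 92491 TPM (transcript abundance scaled for gene length and depth) in GC_WT and to 73286 to 90350 in GC_KO, with all 10 markers detected.

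Of 13433 genes tested, 355 differed between GC_KO and GC_WT (2.64%) by edgeR's quasi-likelihood test at an adjusted p under 0.05, 126 higher (0.938%) and 229 lower (1.7%) in GC_KO. The genes that fell changed more, with a median log2 fold change of -0.93 against 0.62 for those that rose, while the median over all genes tested was 0.01. A log2 change beyond 2 was seen for 43 of the lower and 13 of the higher genes. The TPM of the 6 GC_KO and the 6 GC_WT mice did not overlap for 212 of the 355 genes, and for 280 of all genes tested (2.08%). Every one of the 355 had the same sign in mice 1 to 6 and in mice 7 to 12, a description only, because both sets of mice entered the call. Counts of called genes in the lists below stand beside the 2.64% called, and counts without overlap beside the 2.08%, over all genes tested. In bulk tissue, fewer cells of a type and less RNA per cell cannot be told apart.

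The deletion was visible in the counts of Nfe2l2 itself (chromosome 2, 75675513 to 75704641 in GRCm38, minus strand). GC_WT livers held 34.8 to 57.2 TPM (median 42.2) and GC_KO livers 13.1 to 17.3 TPM (median 15.8). The groups did not overlap, and the log2 fold change was -1.48 (SE 0.10, adjusted p = 4.77e-10). The gene-level table also counts reads from outside the deleted part, so the remaining TPM do not measure intact transcript. Within 5 Mb of Nfe2l2, 48 genes were tested and Nfe2l2 alone was called. Within 20 Mb, B3galt1 and Ly75 were the others of the 3 called among 163. Over all genes tested the share called was 2.64%, and on chromosome 2 it was 1.84%. Both window counts include Nfe2l2, the deleted gene itself, and no test of them was made.

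Among 12 genes of the Nrf2 regulators, the list that holds Keap1 and the small Maf partners, only Nfe2l2 was called by edgeR, and the median log2 fold change was -0.05. Keap1, the substrate adaptor that marks Nrf2 for degradation, lay at 21.1 to 29.0 TPM in GC_WT and 20.8 to 27 in GC_KO, and the log2 fold change was -0.05 with an SE of 0.06. Mafg, a small Maf partner of Nrf2, had a log2 fold change of -0.15 (SE 0.11) and did not pass the test.

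Of the 26 Nrf2 target genes that the study displays, 25 were tested, 12 were lower, none was higher, and no log2 fold change was positive. Their median was -0.51. The study describes them as well known from earlier work, which it cites. It displayed them with these samples, so their direction is not taken as independent evidence here. All 12 were also lower in flown mice. They were Gstm1, Gstm3, Gstm4, Gsta2, Gsta3, Gsta4, Gstp1, Nqo1, Me1, Tkt, Txnrd1 and Ftl1. The 13 that did not pass included several textbook Nrf2 targets. Gclc and Gclm, the catalytic and modifier subunits of the enzyme that starts glutathione synthesis, had log2 fold changes of -0.52 (SE 0.18, adjusted p = 0.146) and -0.29 (SE 0.08, adjusted p = 0.0591). For Hmox1, haem oxygenase 1, it was -0.32 (SE 0.20). For Srxn1, which reduces overoxidised peroxiredoxins, it was -0.51 (SE 0.25). Osgin1, an oxidative stress-induced growth inhibitor, had -1.12 with an adjusted p of 0.0727, from 59.1 to 195 TPM in GC_WT and 39.7 to 79.8 in GC_KO. With the mouse-number split as a factor, 18 of the 25 were called lower, Gclc, Gclm, Srxn1, Osgin1 and Fth1 (the ferritin heavy chain) among the additions. That fit called more genes of every kind, 358 higher and 528 lower against 126 and 229 without the split.

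**Figure D1:**
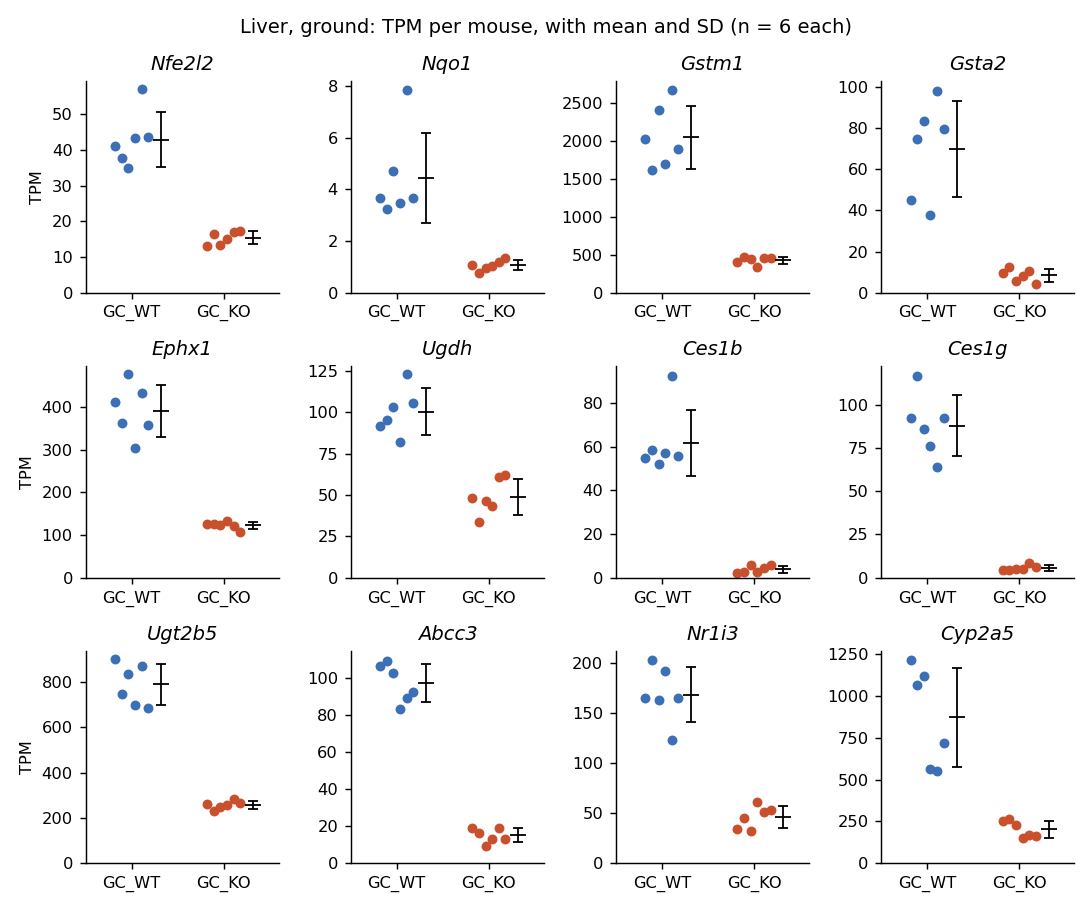
TPM of 12 genes in each of the 6 GC_WT (blue) and 6 GC_KO (orange) livers, with the mean and SD beside the points. The genotypes do not overlap in any panel, and in GC_WT mouse 8 Nqo1 reached 7.84 TPM and Ces1b 92.2 TPM, apart from the other GC_WT mice.

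Glutathione transferases, which join glutathione to electrophiles, were the enzyme class with the most called members. Of 23 tested, 9 were lower and none higher, with a median log2 fold change of -0.51, and the mice of all 9 but Gsta3 were without overlap. Gstm1, an abundant mu-class transferase of hepatocytes, lay at 1620 to 2671 TPM (median 1954) in GC_WT and 343 to 468 TPM (median 450) in GC_KO. The log2 fold change of Gstm1 was -2.27 (SE 0.12, adjusted p = 8.13e-12), and GC_KO livers held 20.9% of the GC_WT mean TPM. Gsta2, an alpha-class transferase, ran from 38.0 to 98.3 TPM (median 77.1) in GC_WT and from 4.23 to 12.6 TPM (median 8.68) in GC_KO, a log2 change of -3.04 (SE 0.28, adjusted p = 6.23e-08). Its GC_KO livers held 12.1% of the GC_WT mean TPM.

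Other members of the class fell too. For Gstm3 the log2 fold change was -2.01 (SE 0.24), with 35.7 to 71.5 TPM in GC_WT against 10.1 to 18.2 in GC_KO. For Gstm4 it was -1.15 (SE 0.18), with 16.3 to 28.9 TPM against 9.07 to 13.7. Gsta4, the alpha-class enzyme that conjugates the lipid peroxidation product 4-hydroxynonenal, fell from a median of 104 TPM to 35.2 TPM. Gstp1, the pi-class enzyme, had 2887 to 4572 TPM in GC_WT and 1970 to 2482 TPM in GC_KO, a log2 fold change of -0.78 (SE 0.12). Gsta3, at 1824 to 2614 TPM in GC_WT and 1265 to 1943 in GC_KO, overlapped by mouse and had a log2 change of -0.51 (SE 0.10, adjusted p = 0.00316). Gsta1 was low throughout, at 3.35 to 12.6 TPM in GC_WT and 0 to 1.38 TPM in GC_KO, with a log2 fold change of -4.13 (SE 0.91) that was -5.05 without GC_KO mouse 11. Gsto1, the omega-class member, went from 101 to 119 TPM in GC_WT to 64.9 to 81.9 TPM in GC_KO. The nearby gene model Gm3776, annotated as protein coding between Gsta1 and Gsta2, lay at 1.79 to 22.5 TPM in GC_WT and 0 to 0.68 in GC_KO. These families hold near-identical copies, and the authors' counting splits reads that fit several copies, so the share of each alpha-class and mu-class copy is uncertain.

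Most of these genes sat in 2 runs on the genome, while Gsta3 lies on chromosome 1 and Gstp1 and Gsto1 on chromosome 19. On chromosome 9, between 78182774 and 78355788, Gsta4, Gsta1, Gm3776 and Gsta2 were tested and all 4 were lower. On chromosome 3, between 107963696 and 108044894, 3 of 4 tested genes were lower, namely Gstm3, Gstm1 and Gstm4.

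Glutathione synthesis and recycling moved little beside these. Of 13 genes, only Gpx4 was called, at a median log2 fold change for the list of -0.16. Gpx4, the peroxidase that reduces lipid hydroperoxides in membranes, lay at 321 to 452 TPM in GC_WT and 262 to 298 TPM in GC_KO, without overlap, and its log2 fold change was -0.41 (SE 0.08, adjusted p = 0.00465). Of 16 genes of the thioredoxin and peroxiredoxin system, Txnrd1, cytosolic thioredoxin reductase, was the one called, at -0.27 (SE 0.06, adjusted p = 0.00738). Its mice overlapped, at 49.2 to 61.4 TPM against 39.5 to 51.4 TPM, and its adjusted p was 0.157 by limma on log2(TPM + 1).

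Enzymes that supply NADPH went in both directions, with 2 of 12 lower, 1 higher and a median of 0.04. Me1, malic enzyme 1, which makes cytosolic NADPH from malate, had 67.7 to 103 TPM (median 77.4) in GC_WT and 33.2 to 53.2 TPM (median 40.3) in GC_KO. The groups did not overlap, and the log2 fold change was -0.94 (SE 0.12, adjusted p = 2.63e-05). Tkt, transketolase of the pentose phosphate pathway, fell by 0.39 on the log2 scale (SE 0.09). Idh1, the cytosolic isocitrate dehydrogenase, was higher by 0.27 (SE 0.07, adjusted p = 0.036), and its call was lost in 13 of 23 alternative settings.

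Of 22 oxidoreductases and epoxide hydrolases, 6 were lower and none higher, with a median of -0.20, and the mice of all 6 were apart. Nqo1, the quinone reductase that is a standard readout of Nrf2, had low values in liver, 3.24 to 7.84 TPM (median 3.65) in GC_WT and 0.77 to 1.35 TPM (median 1.04) in GC_KO. Its log2 fold change was -2.05 (SE 0.26, adjusted p = 1.42e-05). The highest GC_WT value was that of mouse 8, and the other 5 GC_WT mice lay at 3.24 to 4.71 TPM. Ephx1, microsomal epoxide hydrolase, ran from 304 to 477 TPM (median 386) in GC_WT and from 107 to 133 TPM (median 124) in GC_KO, and its log2 fold change was -1.68 (SE 0.11, adjusted p = 5.1e-10). Ugdh, which makes the UDP-glucuronate used by glucuronosyltransferases, ran from 82.3 to 123 TPM (median 99.5) in GC_WT and from 33.5 to 62.2 TPM (median 47.3) in GC_KO, a log2 fold change of -1.04 (SE 0.12). The aldo-keto reductases Akr7a5, Akr1a1 and Akr1c14 fell by 0.40, 0.43 and 0.59 on the log2 scale.

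Upstream of the start of Ephx1 and on the opposite strand lies 9130409I23Rik (chromosome 1, 181051237 to 181060667), a protein-coding gene model whose role is not stated here. It lay at 3.88 to 9.18 TPM in GC_WT and at 0 to 0.17 TPM in GC_KO. GC_KO livers held 1.03% of the GC_WT mean TPM, and the fitted log2 fold change was -6.47 (SE 0.43, adjusted p = 4.77e-10). Its upstream window is the one shown above with 3 motif matches.

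Aldehyde oxidases and the arsenic methyltransferase were not on a list and were chosen after their values were seen. Aox1, which oxidises aldehydes and nitrogen heterocycles, had 31.0 to 45.5 TPM (median 35.8) in GC_WT and 5.99 to 12.0 TPM (median 7.09) in GC_KO, and its log2 fold change was -2.15 (SE 0.15, adjusted p = 6.72e-10). Aox3, its neighbour on chromosome 1, had -1.24 (SE 0.18), with 166 to 265 TPM in GC_WT and 81.4 to 123 TPM in GC_KO. As3mt, which methylates arsenic, had 26 to 56.3 TPM in GC_WT and 7.79 to 11.6 TPM in GC_KO, a log2 fold change of -1.73 (SE 0.15). None of these 3 genes had overlapping mice.

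Carboxylesterases, which hydrolyse esters of drugs and lipids, included some of the largest relative losses. Of 13 tested, 5 were lower and none higher, with a median of -0.46. Ces1b lay at 52.0 to 92.2 TPM (median 56.3) in GC_WT and 2.03 to 5.76 TPM (median 3.60) in GC_KO, which is 6.23% of the GC_WT mean TPM. Its log2 fold change of -4.00 (SE 0.19) had the smallest adjusted p of all genes tested, 5.05e-12. Ces1g lay at 64.0 to 117 TPM (median 89.0) in GC_WT and 4.42 to 8.79 TPM (median 5.08) in GC_KO, and its log2 fold change was -3.97 (SE 0.29, adjusted p = 1.67e-09). Neither gene had overlapping mice.

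Not every esterase of the cluster followed to that degree. Ces1f had a log2 fold change of -0.98 (SE 0.21), from 289 to 413 TPM to 132 to 208 TPM. Ces1c, a secreted plasma esterase, had -0.37 (SE 0.08), from 1293 to 1971 TPM to 1012 to 1279 TPM. On chromosome 8, between 93056728 and 93337308, 4 of 7 tested genes were lower, all of the Ces1 family. Ces2c had a log2 change of -2.13 (SE 0.38, adjusted p = 0.00106), with 59.6 to 76.2 TPM in 5 GC_WT mice, 19.6 TPM in GC_WT mouse 8 and 11.2 to 19.7 TPM in GC_KO, so the groups overlapped through that mouse. Without GC_WT mouse 8, 6 of 13 carboxylesterases were lower.

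Glucuronosyltransferases and sulfotransferases, which conjugate hormones, bilirubin and drugs, had 7 of 25 tested genes lower and none higher, with a median of -0.29. Ugt2b5, an abundant hepatic enzyme, had 687 to 903 TPM (median 792) in GC_WT and 230 to 283 TPM (median 258) in GC_KO. The groups did not overlap, and the log2 fold change was -1.63 (SE 0.08, adjusted p = 8.13e-12). Ugt2b35 and Ugt2b36, its neighbours, fell by 1.59 and 1.13 on the log2 scale. On chromosome 5, between 87000860 and 87140318, all 4 genes tested were lower. The isoforms of the Ugt1a locus share their last exons, so reads there cannot be told apart between them. Ugt1a6a and Ugt1a6b fell by 0.98 and 0.92, from 77.6 to 93.8 TPM to 37.9 to 47.9 TPM for Ugt1a6a. Ugt1a9, with -1.04 (SE 0.20), overlapped by mouse. Sult5a1, at 1.36 to 5.13 TPM in GC_WT and 0.78 to 2.70 TPM in GC_KO, had -1.16 with an adjusted p of 0.0448, and this call was lost in 14 of 21 settings.

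**Figure D2:**
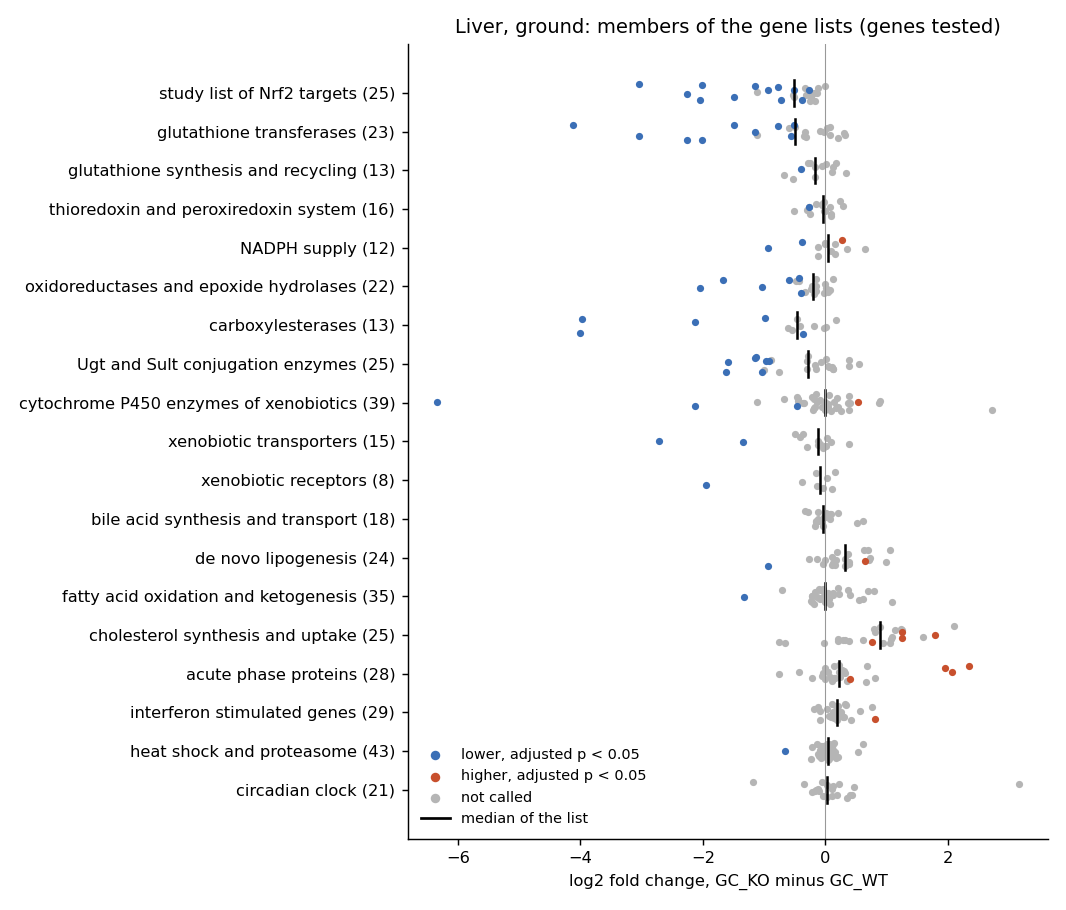
Log2 fold change (GC_KO minus GC_WT) of each gene tested in 19 lists, with the number tested in brackets, called genes in blue (lower) or orange (higher) and a bar at the list median. The conjugation, esterase and oxidoreductase lists hold called genes on the lower side alone, and the cholesterol list has a median of 0.89.

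Cytochrome P450 enzymes of foreign compounds were mostly not called, with 3 of 39 lower, 1 higher and a median of -0.01. Cyp2a5, the mouse coumarin hydroxylase, had 552 to 1216 TPM (median 893) in GC_WT and 147 to 266 TPM (median 197) in GC_KO. Its groups did not overlap, and the log2 fold change was -2.13 (SE 0.35, adjusted p = 0.000419). Cyp2f2, typical of periportal hepatocytes, fell by 0.46 (SE 0.10), from 1057 to 1389 TPM to 785 to 929 TPM. Cyp2c67 was higher by 0.54 (SE 0.13, adjusted p = 0.0222) with overlapping mice.

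The size of the change of Cyp2a4, a steroid hydroxylase, rested on GC_WT mouse 8. That mouse had 167 TPM, the other 5 GC_WT mice had 0.69 to 2.42 TPM and GC_KO mice had 0.09 to 0.60 TPM. The fitted log2 fold change was -6.34 (SE 1.34, adjusted p = 0.00695). Without that mouse it was -2.22 (adjusted p = 0.0262), and limma on log2(TPM + 1) gave -1.88 with an adjusted p of 0.228. Cyp17a1, which hydroxylates steroids at carbon 17, had 38.5 TPM in the same mouse, 3.84 to 7.36 TPM in the other 5 GC_WT mice and 0.47 to 1.19 TPM in GC_KO. Its log2 fold change was -3.57 (SE 0.51, adjusted p = 8.52e-05), and without that mouse -2.69 (adjusted p = 7.54e-06).

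Of 15 transporters of foreign compounds, 2 were lower and none higher, with a median of -0.12. Abcc3, which exports glucuronides across the sinusoidal membrane into blood, had 83.4 to 110 TPM (median 97.6) in GC_WT and 9.27 to 19.0 TPM (median 14.7) in GC_KO, or 15.3% of the GC_WT mean TPM. The groups did not overlap, and the log2 fold change was -2.72 (SE 0.18, adjusted p = 5.1e-10). Abcc4, another exporter, was low at 0.69 to 1.71 TPM in GC_WT and 0.29 to 0.77 TPM in GC_KO, with -1.34 (SE 0.23) and overlapping mice. Abcc2, the canalicular exporter, had -0.12 (SE 0.13) and did not pass the test.

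Among 8 xenobiotic receptors, Nr1i3 was the gene called by edgeR. Nr1i3, the constitutive androstane receptor that induces P450 and conjugation genes, had 123 to 203 TPM (median 165) in GC_WT and 32.4 to 61.1 TPM (median 47.8) in GC_KO. Its groups did not overlap, and the log2 fold change was -1.96 (SE 0.19, adjusted p = 2.79e-07). The opposite-strand gene Tomm40l overlaps it on chromosome 1, and it moved the other way, from 3.47 to 6.97 TPM to 8.2 to 12.2 TPM, a log2 change of 1.18 (SE 0.14, adjusted p = 3.87e-06). Whether reads of one were counted for the other was not tested, since the strand setting of the counting is not given in the sources used here. Nr1i2, the pregnane X receptor, had -0.04 (SE 0.19), and Ahr, the dioxin receptor, had -0.14 (SE 0.15), and neither passed the test.

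Iron and haem genes had 1 of 20 lower and 1 higher. Ftl1, the ferritin light chain, ran from 2833 to 4795 TPM (median 3918) in GC_WT and from 1870 to 2649 TPM (median 2306) in GC_KO, without overlap, and its log2 fold change was -0.72 (SE 0.10, adjusted p = 8.05e-05). Fth1, the heavy chain, had -0.24 (SE 0.08, adjusted p = 0.148). Cpox, an enzyme of haem synthesis, was higher by 0.36 (SE 0.08).

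Genes of lipid and sugar handling were mostly not called. De novo lipogenesis had Acacb higher and Me1 lower of 24 genes, with a median of 0.32. Acacb, the mitochondrial acetyl-CoA carboxylase that restrains fatty acid oxidation, had 15.0 to 24.1 TPM in GC_WT and 24.3 to 44.7 TPM in GC_KO, a log2 fold change of 0.64 (SE 0.13). Cd36, the fatty acid transporter, was the 1 gene called of 35 of fatty acid oxidation and ketogenesis (2.86%, near the 2.64% of all genes tested). It had 16.6 to 35.8 TPM (median 19.5) in GC_WT and 6.64 to 11 TPM (median 8.81) in GC_KO, without overlap, and its log2 fold change was -1.33 (SE 0.22, adjusted p = 0.000419). Pygl, liver glycogen phosphorylase, fell by 0.39 (SE 0.10, adjusted p = 0.0447), which was lost in 14 of 23 settings, and was the 1 gene called of 19 of glucose production and insulin response. Of 18 bile acid genes none was called by edgeR or DESeq2, and 3 had an unadjusted p under 0.05.

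Genes of cholesterol synthesis and uptake had the highest median of the metabolic lists, 0.89 on the log2 scale over 25 genes, of which 22 were positive, 4 were called higher and none lower. Hmgcs1, the cytosolic HMG-CoA synthase at the entry to the mevalonate pathway, was higher by 1.79 (SE 0.47, adjusted p = 0.0379). Further along the pathway, Pmvk had 1.25 (SE 0.30), Dhcr7 1.26 (SE 0.30) and Hsd17b7 0.77 (SE 0.20). Mice of all 4 genes overlapped. Sqle, squalene epoxidase, had 2.09 (SE 0.62, adjusted p = 0.0795) and did not pass the test. Aacs, the cytosolic acetoacetyl-CoA synthetase, which is not on the list, was higher by 1.42 (SE 0.36, adjusted p = 0.0318). Its call was lost in 8 of 23 settings, among them without GC_KO mouse 11 (1.16, adjusted p = 0.0992), and its flight value was -0.33.

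These values went with the mouse number. Hmgcs1 lay at 25.5 to 43.8 TPM in GC_KO mice 1, 2 and 4 against 16.9 to 31.8 in GC_WT mice 3, 5 and 6, and at 117 to 317 TPM in GC_KO mice 9, 11 and 12 against 28.2 to 55.2 in GC_WT mice 7, 8 and 10. The list median was 0.20 in mice 1 to 6, with no gene called by edgeR and 2 at an unadjusted p under 0.05. It was 1.25 in mice 7 to 12, with 13 called higher and 2 lower. The share of all genes called within mice 7 to 12 is not given here. The difference between both sets of mice was called for no gene by edgeR, and 12 of 25 had an unadjusted p under 0.05, against 818 of 13433 genes tested. GC_KO mouse 11 had the highest value of all 12 mice for 23 of the 25 genes, and GC_WT mouse 8 the highest of its group for 20. Without GC_KO mouse 11 no gene of the list was called by edgeR, 15 had an unadjusted p under 0.05 against 22 with it, and the median was 0.54. Hmgcs1 was then 1.16 (adjusted p = 0.159) and Sqle 1.46 (adjusted p = 0.268). Without GC_WT mouse 8, 6 were called and the median was 1.02. Without GC_KO mouse 9, 1 was called, and without GC_KO mouse 12, 2. DESeq2 called 12 of the 25, and over all genes it called 194 higher and 314 lower against 126 and 229 by edgeR. The fit with the mouse number as a replicate block called 1 of the list, and the fit with only the ground mice 1. Hmgcs1, Pmvk, Dhcr7 and Hsd17b7 kept their calls with the mouse number as a linear covariate and with the mouse-number split as a factor. Sqle gained a call in both, with 1.76 (adjusted p = 0.0341) and 1.79 (adjusted p = 0.0368). In flown mice the median of the genotype contrast was 0.02, with no gene called by edgeR and 0 at an unadjusted p under 0.05. The difference between flight and ground had an unadjusted p under 0.05 for 12 of the 25, against 542 of 13433 genes tested, and the smallest adjusted p was 1.0.

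**Figure D3:**
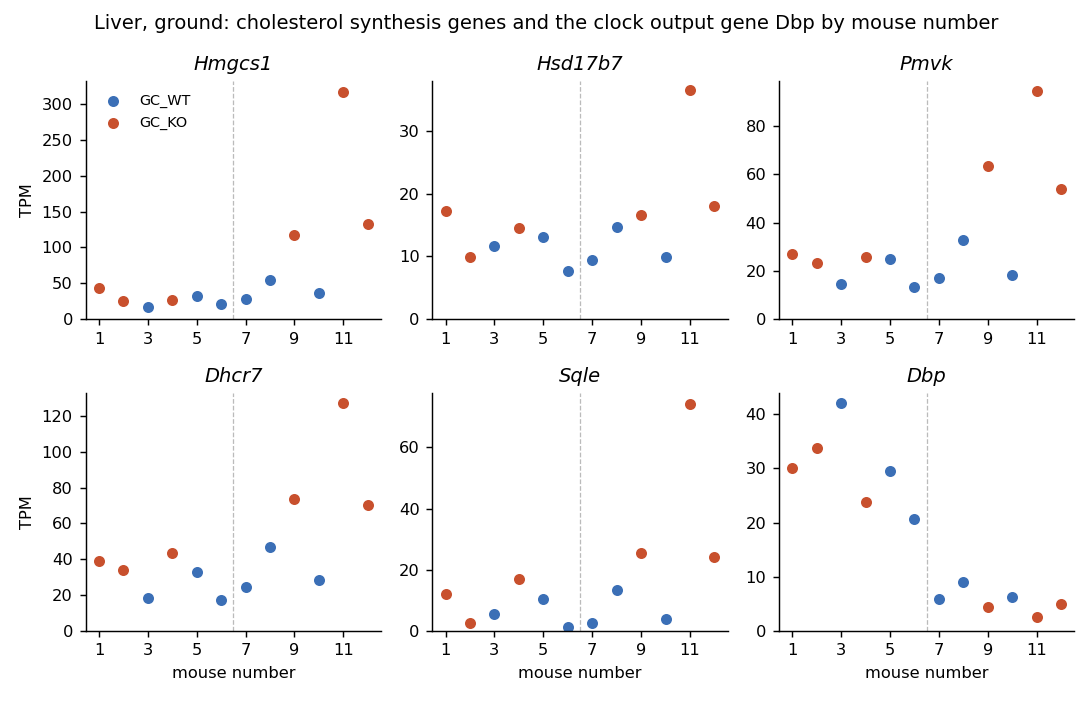
TPM of 5 cholesterol synthesis genes and of Dbp in each ground liver by mouse number, GC_WT in blue and GC_KO in orange, with a dashed line between mice 6 and 7. The GC_KO values of Hmgcs1 reach 117 to 317 TPM in mice 9, 11 and 12, and Dbp falls from 20.7 to 42.0 TPM in mice 1 to 6 to 2.59 to 9.02 TPM in mice 7 to 12 in both genotypes.

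Clock genes also followed the mouse number, with genotype in the fit. Dbp, an output factor of the circadian clock, lay at 20.7 to 42.0 TPM in mice 1 to 6 and 2.59 to 9.02 TPM in mice 7 to 12. Nr1d1, the clock repressor REV-ERB alpha, lay at 10.1 to 25.7 TPM against 1.04 to 2.82 TPM, and Arntl, the clock activator BMAL1, at 4.11 to 7.74 TPM against 11.3 to 21.9 TPM. None of these ranges overlapped, in genes chosen after the data had been seen. Of 21 clock genes none was called between genotypes by edgeR or DESeq2, with 4 at an unadjusted p under 0.05 and a median of 0.02, and 16 were called between both sets of mice. Of the 25 cholesterol genes, 14 were called between the sets too. The part of the mouse number in the genotype values of the cholesterol genes was not tested beyond these fits.

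Acute phase proteins had 4 of 28 genes higher and none lower, with a median of 0.22. Saa1, a serum amyloid A protein that the liver secretes in inflammation, had 25.9 to 68.0 TPM (median 39.4) in GC_WT and 67.4 to 637 TPM (median 93.8) in GC_KO, a log2 change of 2.34 (SE 0.50, adjusted p = 0.00837). The groups overlapped, and the 2 highest livers were those of GC_KO mice 12 and 1, at 637 and 338 TPM. Saa2 had 1.95 (SE 0.43), with overlapping mice. Without GC_KO mouse 12 Saa1 had 1.66 (adjusted p = 0.0338) and Saa2 1.28 (adjusted p = 0.0297). Lcn2, lipocalin 2, had 1.76 to 4.56 TPM in GC_WT and 5.04 to 34.5 TPM in GC_KO, without overlap, and a log2 fold change of 2.07 (SE 0.43). Hp, haptoglobin, had 0.40 (SE 0.10, adjusted p = 0.0342). GC_KO mouse 1 or 12 had the highest value of all 12 mice for 17 of the 28 genes. Without GC_KO mouse 1 the list had 3 genes higher and 1 lower, and without GC_KO mouse 12 likewise 3 and 1. With the mouse number as a replicate block it had 1 higher and 1 lower.

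Stress pathways other than the Nrf2 list showed few calls. In the integrated stress and unfolded protein response, 25 genes were tested and the median was -0.28. Atf4, the transcription factor of the integrated stress response, was higher by 0.41 (SE 0.10, adjusted p = 0.0259). The Atf4 call was lost in 7 of 23 settings, and its flight value was -0.11. Asns, asparagine synthetase, was lower with 0.86 to 12.0 TPM in GC_WT and 0 to 0.42 TPM in GC_KO (log2 fold change -4.37, SE 0.64). The highest GC_WT value of Asns was that of mouse 8, and the other 5 lay at 0.86 to 3.67 TPM, and without that mouse the log2 fold change was -3.68 (adjusted p = 0.000157). Of 43 heat shock and proteasome genes, Hspb1 was lower by 0.66 (SE 0.17, adjusted p = 0.038), which was lost in 12 of 23 settings. Of 29 interferon stimulated genes, Usp18 was higher by 0.81 (SE 0.18), and the median was 0.18. The share called was 2.33% of the heat shock and proteasome list and 3.45% of the interferon list, near the 2.64% of all genes tested. Of 14 fibrosis and matrix genes, Fn1, fibronectin, was higher by 0.33 (SE 0.09, adjusted p = 0.0486), lost in 15 of 23 settings. None of 20 proliferation genes, 15 p53 targets, 9 genes of glucocorticoid response and metallothioneins and 7 MHC class II genes was called by edgeR, and 0, 1, 1 and 3 of them had an unadjusted p under 0.05. DESeq2 called 1 of the p53 targets and none of the others.

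Zonation markers moved little, with 1 of 18 pericentral and 1 of 18 periportal genes lower and medians of 0.10 and -0.04. Each is 5.56% of its list, a single gene, against 2.64% of all genes tested. Slc1a2, a glutamate transporter of pericentral hepatocytes, had 42.8 to 71.7 TPM (median 61.9) in GC_WT and 22.8 to 35.4 TPM (median 26.7) in GC_KO, a log2 change of -1.24 (SE 0.20, adjusted p = 0.000459). Cyp2f2 was the periportal gene called. Of 10 Kupffer cell markers Marco, a scavenger receptor, was lower, at 0.77 to 9.10 TPM in GC_WT and 0.22 to 0.65 TPM in GC_KO (log2 fold change -3.18, SE 0.51). The other 9 had positive log2 fold changes and were not called, and the list median was 0.25. The Kupffer list summed to 83.4 to 176 TPM in GC_WT and 101 to 186 TPM in GC_KO.

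Of the 13 cell type lists, the pancreas list had the one summed level that differed after adjustment over the 13 lists. It summed to 9.39 to 27 TPM in GC_WT and 34.2 to 49.9 TPM in GC_KO (exact two-sided permutation test of 6 against 6 mice, p = 0.00216, adjusted p = 0.0281), and 4 of its 10 genes were at 0 in all 12 livers and 9 were under 1 TPM. Nearly all of the sum was Cela1, an elastase, at 9.07 to 26.9 TPM in GC_WT and 33.6 to 49.4 TPM in GC_KO (log2 fold change 1.22, SE 0.23, adjusted p = 0.00266). The adipocyte list summed to 1369 to 2670 TPM in GC_WT and 2172 to 3375 TPM in GC_KO (exact permutation p = 0.0281, adjusted p = 0.183). Of its 10 genes, 5 were under 1 TPM in all 12 livers. Of the 5 that were tested none was called and 2 had a positive log2 fold change, with a median of -0.19. Most of its tested members thus did not follow the sum. The T and NK cell, neutrophil and mesothelium lists stayed under 8 TPM in sum in every liver, and the summed levels of the other lists overlapped between genotypes.

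A set of 13 called genes had a median under 1 TPM in one genotype and a mean of at least 5 TPM in the other, 4 of them higher and 9 lower in GC_KO. Nnt, the mitochondrial transhydrogenase that makes NADPH from NADH, is listed under 2 overlapping identifiers on chromosome 13. The first (ENSMUSG00000025453.18, 119335448 to 119408997) had 0 to 2.76 TPM (median 0.195) in GC_WT and 11.3 to 21.4 TPM (median 15.7) in GC_KO, and the fitted log2 fold change was 4.18 (SE 0.51, adjusted p = 7.69e-06), and 4.98 without GC_WT mouse 5. The second (ENSMUSG00000116207.1) had 16.5 to 26.7 TPM in GC_WT and 27 to 43.1 TPM in GC_KO, with 0.83 (SE 0.12). Because both share reads, they were also summed. The sum was 19.1 to 28.8 TPM (median 19.4) in GC_WT and 45.7 to 57.9 TPM (median 52.8) in GC_KO, 2.46 times as high by the means. The exact permutation p was 0.00216, the smallest that 924 divisions of 6 against 6 mice can give. Flown mice showed the same order, at 25.9 to 33.9 TPM in FL_WT and 76.4 to 97.5 TPM in FL_KO. As background, the C57BL/6J strain carries a deletion within Nnt, and several other C57BL/6 substrains do not. The study's methods give C57BL/6J for both genotypes, and whether the mice differ in substrain was not tested.

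Other genes with wide gaps lay on several chromosomes. Vcpkmt, a protein lysine methyltransferase (chromosome 12, 69577628 to 69583028) whose GC_WT median of 1.27 TPM keeps it outside the set of 13, had 0.90 to 1.54 TPM in GC_WT and 7.54 to 10.5 TPM in GC_KO, a log2 change of 2.83 (SE 0.21, adjusted p = 2.07e-09). The processed pseudogene Gm7868 on the same chromosome had 0 to 0.87 TPM against 7.36 to 8.25 TPM. The pseudogene Gm3608 on chromosome 1 had 0.22 to 0.55 TPM against 8.28 to 11.4 TPM. In the other direction E030018B13Rik (chromosome 7, 63916857 to 63920539) had 5.04 to 11 TPM in GC_WT, from 45 to 108 counts, and no count in any of the 6 GC_KO livers. It was at least 141-fold lower in GC_KO, with the limit taken as 3 counts over the group, and it was also at 0 in every FL_KO liver. Mapk15, an atypical MAP kinase, had 3.60 to 12.2 TPM against 0.32 to 2.08 TPM, a log2 fold change of -2.86 (SE 0.35). Cib3, a calcium-binding protein, had 1.69 to 19.6 TPM against 0 to 1.3 TPM, a log2 fold change of -3.84 (SE 0.61). The 19.6 TPM was that of GC_WT mouse 8, and the other GC_WT mice lay at 1.69 to 5.61 TPM. Cib3 was tested in 16 settings, and the fit without GC_WT mouse 8 was not among them. Its flight value was -1.53 (adjusted p = 0.351 by edgeR). On chromosome 18 the genes F830016B08Rik and 1500015A07Rik moved in opposite directions, with log2 fold changes of -4.26 (SE 0.24) and 3.19 (SE 0.23).

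**Figure D4:**
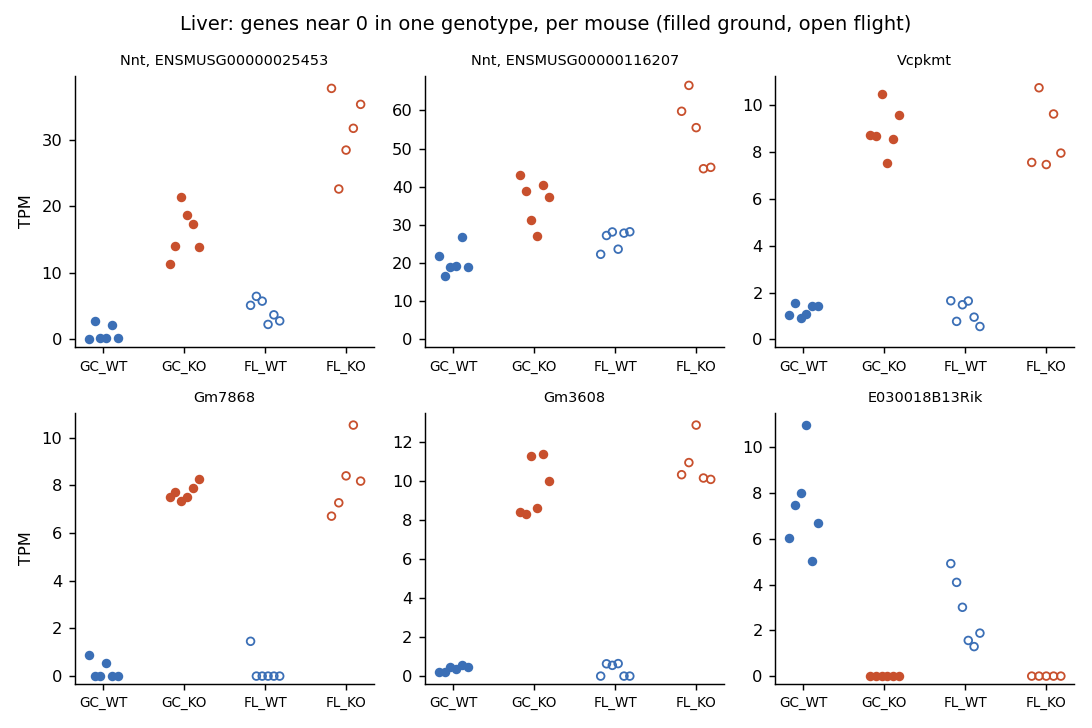
TPM of 5 genes, with both Nnt identifiers shown apart, in each liver of the 4 groups, filled points for ground and open points for flight, blue for WT and orange for Nrf2-KO. E030018B13Rik is at 0 in all Nrf2-KO livers, and Vcpkmt lies at 0.90 to 1.54 TPM in GC_WT against 7.54 to 10.5 TPM in GC_KO.

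Some other called genes also lay near each other. Of the 355, 166 had another called gene starting within 500 kb, and 23 runs of at least 3 such genes held 90 of them. On chromosome 4, between 42206998 and 42242685, all 5 genes tested were lower. On chromosome 13 both Nnt identifiers, Tmem267 and Hmgcs1 made 1 run, 4 called of 6 tested. On chromosome 19, between 46573365 and 47015153, 5 of 7 were called, with Cyp17a1 and As3mt among them. In the major urinary protein cluster of chromosome 4, 6 of 13 tested were called, 5 lower and 1 higher. There Mup19, chosen after its values were seen, had 529 to 6365 TPM (median 5284) in GC_WT and 128 to 907 TPM (median 240) in GC_KO, a log2 change of -3.91 (SE 0.59, adjusted p = 0.000161). GC_WT mouse 8 had the 529 TPM and GC_KO mouse 11 the 907 TPM, so the groups overlapped. Without GC_KO mouse 11 the log2 fold change was -4.53. These proteins come from near-identical copies, and the split of reads between them is uncertain. Some runs lay in spans where most genes were not called, such as 7 called of 35 tested on chromosome 7 and 3 of 22 on chromosome 10. No test of clustering was made, and the same counts were not taken over all genes tested. The counts therefore do not show that called genes lie closer together than other genes.

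Other higher genes with wide gaps included Hsd3b2 and Atp11a. Hsd3b2, a hydroxysteroid dehydrogenase, had 20.8 to 49.2 TPM (median 29.8) in GC_WT and 72.2 to 211 TPM (median 99.2) in GC_KO, a log2 change of 1.86 (SE 0.31, adjusted p = 0.000618). Atp11a, a phospholipid flippase, had 1.71 to 3.30 TPM against 3.72 to 13.4 TPM, with 1.44 (SE 0.24). Gm5970, annotated as a processed pseudogene in the same chromosome 18 run as F830016B08Rik, had 2.76 to 4.06 TPM against 12.6 to 23.5 TPM, with 2.35 (SE 0.17). None of these 3 overlapped by mouse.

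The flown mice gave the same genotype contrast in animals that share none with the ground mice. The mouse numbers of each genotype were the same in flight as on the ground, save for the flown mouse left out. Anything that goes with the number is therefore shared by both contrasts, and its part in their likeness was not tested. There 490 genes were called (3.65%), 183 higher (1.36%) and 307 lower (2.29%). Of the 355 ground calls, 344 had the same sign in flight (96.9%), against 67.5% of all genes tested. A call in both, in the same direction, was found for 215 genes, 60.6% of the ground calls and 43.9% of the flight calls, 51 of them higher and 164 lower. Gstm1 had -2.27 on the ground and -1.95 in flight, Ces1b -4.00 and -4.16, Ugt2b5 -1.63 and -1.63, and Nfe2l2 -1.48 and -1.50. The difference between both contrasts was called for no gene by edgeR, 1 by DESeq2 and none by limma-voom. Its unadjusted p was under 0.05 for 542 of 13433 genes, which is below the share of 0.05 that chance alone gives. Saa1, with 2.34 on the ground and 0.29 in flight, and Hmgcs1, with 1.79 and 0.11, were called on the ground and not in flight, and their difference was not called.

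**Figure D5:**
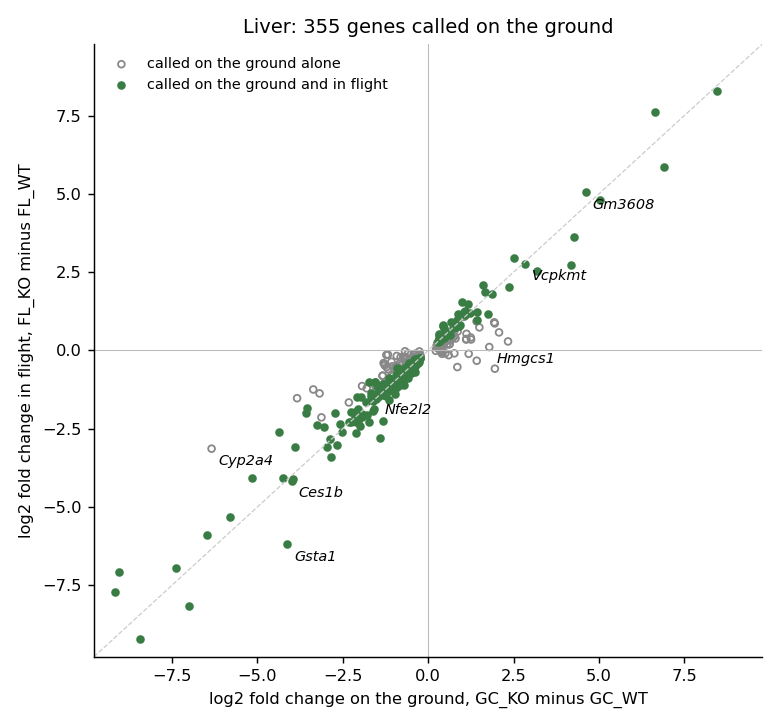
Log2 fold changes of the 355 genes called on the ground, with GC_KO minus GC_WT on the x axis and FL_KO minus FL_WT on the y axis, filled where the gene was called in flight too. Of the points, 344 have the same sign on both axes, and Cyp2a4 (-6.34 and -3.14) and Hmgcs1 (1.79 and 0.11) are among those called on the ground alone.

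Liver was compared with kidney (Kid) and epididymal white fat (eWAT) of the same ground mice, with the mouse as a block. With the 6 mice that had Kid libraries, the genotype contrast differed between liver and Kid for 56 of 15425 genes (0.363%), 25 positive (0.162%) and 31 negative (0.201%) as liver minus Kid, and 31 of the 56 were called in liver. With all 12 mice, it differed between liver and eWAT for 70 of 15412 genes (0.454%), 21 positive (0.136%) and 49 negative (0.318%), and 48 of the 70 were called in liver. Abcc3 and Ephx1 were lower in GC_KO liver and differed from both tissues. For Abcc3 the log2 fold change was -2.63 in liver and -0.14 in Kid (difference -2.50, adjusted p = 0.0268), and -2.72 and 0.09 in eWAT (difference -2.84, adjusted p = 2.43e-05). For Ephx1 the differences were -1.62 (adjusted p = 0.0274) and -1.50 (adjusted p = 0.000374). Gsta3 differed the other way, with -0.37 in liver and -3.04 in Kid (difference 2.64, adjusted p = 0.000107). For Ugt2b5 the liver value was -1.61 and that of Kid 1.47, in opposite directions.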

How the data were processed

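RNA was measured in 12 ground livers by strand-specific poly(A) libraries read as 76-cycle single reads. The authors aligned reads with STAR 2.6.1 and quantified genes with RSEM 1.3.1 on GENCODE vM20 (GRCm38), and the strand setting is not given in the sources used here. The deposited expected counts are not normalized, and reads that fit several genes are split between them. For the same genes the authors also gave TPM. A further 192 columns of FPKM were not used.

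Expected counts were rounded, filtered with filterByExpr, scaled by TMM and tested in 1 fit of 23 liver libraries with edgeR 4.0.16 (R 4.3.3) by its quasi-likelihood test, with Benjamini-Hochberg adjustment over all genes tested and calls at 0.05. Fold changes come from this fit and levels from TPM. The script was tested on simulated data. Alternatives used DESeq2 1.42.0 and limma 3.58.1. Summed TPM were compared by exact two-sided permutation tests. Coordinates are those of GENCODE vM21, which matched 99.9% of identifiers. Each library comes from a separate mouse, so n counts animals.

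The comparison and the gene lists were chosen with earlier results of these data known. A few genes of the cholesterol list are not reported here. Genes were named by a rule: Nfe2l2, the study's Nrf2 targets, up to 4 called members per list and direction with a mean of 5 TPM, and the 12 largest changes each way without overlap between mice. Asns, Ugt2b36, Ugt1a9, Ces1c, Akr1c14, Abcc4, Gsto1, Marco, Sult5a1, Usp18, Aox1, Aox3, As3mt and Mup19 lie outside it and were chosen after their values were seen, as were Keap1, Ahr, Nr1i2 and Sqle for their known roles. The clock genes Dbp, Nr1d1 and Arntl also lie outside it and were chosen after the data had been seen.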

Additional observations from a re-analysis of the deposited data

Results flagged for a closer look

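Of 190 groups of 6 mice examined over the genes named here, 20 held a mouse whose value lay apart from the other 5 beyond Dixon's 95% limit, where chance flags about 5% of groups. GC_WT mouse 8 held 12 of them. In that mouse Cyp17a1 reached 38.5 TPM (others 3.84 to 7.36), As3mt 56.3 (others 26 to 29.8), Nqo1 7.84 (others 3.24 to 4.71), Tomm40l 6.97 (others 3.47 to 4.62) and Txnrd1 61.4 (others 49.2 to 53.3). Cyp2a4 reached 167 TPM there (others 0.69 to 2.42), Cib3 19.6, Asns 12.0, Gsta3 2614, Ces1f 413 and Ces1b 92.2, while Ces2c was lower than in the others at 19.6 TPM (others 59.6 to 76.2). GC_KO mouse 11 was apart for Hmgcs1 (317 TPM, others 25.5 to 133), Sqle (74.3 TPM), Hsd17b7 (36.5 TPM), Gsta1 (1.38 TPM) and Mup19 (907 TPM, others 128 to 346). GC_KO mouse 9 was apart for Akr1a1 (154 TPM, others 184 to 200) and Cib3 (1.3 TPM), and GC_WT mouse 10 for Cyp2f2 (1389 TPM, others 1057 to 1180).

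The genotype contrast of 35 pairs of gene and tissue differed between liver and another tissue of the same ground mice by edgeR's interaction term, 15 in Kid and 20 in eWAT. Values are the liver contrast minus that of the other tissue on the log2 scale. Against Kid, the liver value was lower for Ugt2b5 (-3.08), Mapk15 (-3.24), Asns (-3.52), Abcc3 (-2.50), Slc1a2 (-1.91), Ephx1 (-1.62), Ces2c (-1.60), As3mt (-1.42) and Cd36 (-0.77). It was higher for Nnt (ENSMUSG00000025453.18, 3.85), Gsta3 (2.64), Vcpkmt (2.07), Tomm40l (1.33), Cela1 (1.27) and Hmox1 (0.98). Hmox1 had -1.12 in Kid and -0.13 in liver (adjusted p = 0.0421).

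Against eWAT, the liver value was lower for F830016B08Rik (-4.29), Mapk15 (-4.08), Asns (-3.83), Cyp17a1 (-3.58), Abcc3 (-2.84), As3mt (-2.44), Sult5a1 (-2.0), Ephx1 (-1.50), Gstm4 (-1.18), Aox1 (-1.15), Gstm1 (-1.12), Gsta4 (-0.90), Ugdh (-0.85) and Pygl (-0.81). It was higher for Cyp2f2 (2.35), 1500015A07Rik (1.74), Vcpkmt (1.62), Ces1f (1.4), Gsta3 (1.19) and Tomm40l (1.13). Gstm1 was lower in GC_KO in both tissues, with -2.27 in liver and -1.13 in eWAT. Mapk15 was lower in liver (-2.87) and had a positive value in eWAT (1.42).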

How the results depend on the processing

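Against 126 higher and 229 lower genes, DESeq2 called 194 and 314, the mouse number as a linear covariate gave 330 and 498, and the mouse-number split as a factor, added after seeing the data, gave 358 and 528. No filter on low counts gave 87 and 197, only the ground mice in the fit 92 and 197, and limma on log2(TPM + 1) 111 and 165. With each of the 12 mice left out in turn, the counts were 88 to 120 higher and 187 to 226 lower. The difference between flight and ground had 0 genes by edgeR and 1 by DESeq2.

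GC_WT and GC_KO share no mouse number, and same-numbered ground and flown livers correlated in their deviations by 0.0202 to 0.369, not over 0.1 in every pair, so the numbers were not taken to pair mice. With the mouse number as a replicate block, limma-voom called 103 higher and 207 lower. Without the replicate block, liver against Kid gave 24 and 30 genes and liver against eWAT 25 and 59.

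Of 83 called genes named here, 62 kept their call in every setting in which they were tested and none changed direction. The 21 others were Hmgcs1, Pmvk, Dhcr7, Hsd17b7, Aacs, Saa1, Saa2, Lcn2, Hp, Atf4, Idh1, Tkt, Txnrd1, Cyp2a4, Cyp2c67, Cpox, Fn1, Hspb1, Pygl, Sult5a1 and Usp18, and the cause was not tested. Gclm, Gclc, Srxn1, Osgin1, Sqle and Fth1 gained a call in at least 1 setting. With 6 mice a group, values of low genes such as Nqo1 and Gsta1 rest on few counts.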
